A study of Mus musculus with 23 samples.

Results

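Splicing factor genes of 4 families were followed through a low-input RNA-seq series of mouse T cells and diluted mouse RNA. They were every gene in the count table whose symbol starts with Snrp, Srsf and a digit, Sf3a or Sf3b and a digit, or Hnrnp, which gave 52 of 22488 genes. The families were the Sm and U snRNP proteins (Snrp, 12 genes), the SR proteins (Srsf, 11), the SF3A and SF3B subunits (Sf3, 9) and the hnRNP proteins (Hnrnp, 20). Introns are removed by the spliceosome, which is assembled from U snRNPs, and the Sm proteins form the ring around most of their small nuclear RNAs. SF3A and SF3B belong to the U2 snRNP and hold it at the branch point, SR proteins bind exons and recruit the splicing machinery, and hnRNP proteins coat the transcript and often keep exons out. In T cells these families are known for setting the isoforms of the surface phosphatase CD45, whose variable exons are silenced by hnRNP L and hnRNP LL.

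The design asks how the measured levels hold up as the starting material is made smaller. The T cell libraries were made from 100, 500, 1000 or 10000 spleen T cells, 3 libraries each (12 in all), and the RNA libraries from 0.1, 0.5, 1 or 5 ng of RNA, 2 libraries at 0.1 ng and 3 at each other amount (11 in all). All 23 libraries carry strain C57 and an age of 6 to 18 weeks in the labels, with no treatment or genotype. The labels of the RNA libraries name the cell line raw 264.7, a mouse macrophage line, while the series' design text describes RNA of mouse spleen. No label says whether the replicates are independent samples of animals or repeat dilutions, and p-values therefore measure only the spread between these libraries, which may be technical. Reverse transcription was primed with oligo(dT), per the labels' protocols.

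Library totals were 1737067 to 7908638 counts. Levels are given as CPM, a gene's counts per 1000000 counts of its library. The RNA libraries held markers of several blood lineages, which a macrophage line is not known for: the 15 B cell genes summed to 14606 to 15379 CPM in the RNA libraries, the 12 neutrophil genes to 3759 to 5375 CPM and the 11 erythroid genes to 2727 to 4737 CPM, beside 2922 to 3577 CPM for 15 macrophage and monocyte genes. The 20 T cell core genes summed to 6654 to 11781 CPM in the T cell libraries, against 2674 to 2952 CPM in the RNA libraries. Replicate 3 of the 100-cell group stood apart from the other T cell libraries. It held the lowest T cell core sum, 6654 CPM, and the highest B cell, macrophage, neutrophil and erythroid sums of any T cell library, 7868, 1526, 2106 and 1638 CPM, against T cell medians of 726, 144, 47.4 and 226 CPM. In such bulk libraries, fewer cells of a type and less RNA per cell cannot be told apart.

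The 52 genes together held a similar share of the counts in most groups, and a larger one in 1000 T cells. Their summed level was 11124 ± 398, 11325 ± 37.0, 12332 ± 220.3 and 11557 ± 176 CPM in 100, 500, 1000 and 10000 T cells (SD, n = 3 each). It was 10912 ± 434 CPM in 0.1 ng RNA (SD, n = 2) and 11726 ± 59.3, 11484 ± 165 and 11107 ± 138 CPM in 0.5, 1 and 5 ng RNA (SD, n = 3 each). The T cell libraries ran from 10716 to 12540 CPM and the RNA libraries from 10606 to 11789 CPM, so the materials overlapped. All libraries of 1000 T cells, at 12101 to 12540 CPM, lay above every library of the other groups. In every library the hnRNP genes held the largest sum, with 5598 to 6606 CPM in T cell libraries and 5854 to 6615 CPM in RNA libraries. The Sm and U snRNP genes held the smallest, 395 to 540.2 CPM in T cells and 331 to 549 CPM in RNA, and the SR genes summed to 2083 to 2679 CPM in T cells and 1993 to 2403 CPM in RNA. These 3 families overlapped between the materials. The SF3 genes did not: their sum was 2559 to 2870 CPM in the 12 T cell libraries, above the 2114 to 2417 CPM of the 11 RNA libraries, and no test was made of this sum because the genes were chosen with earlier results known. Replicate 3 of the 100-cell group did not set that separation: the 100-cell SF3 sums were 2576, 2577 and 2588 CPM in replicates 1, 2 and 3. The separation is one of CPM over library totals. When libraries were rescaled by their typical gene, family means moved by -3.39% to 3.75%. The SF3 sums of single libraries were not compared on that scale, and the gap between the materials is narrow beside such shifts.

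**Figure D1:**
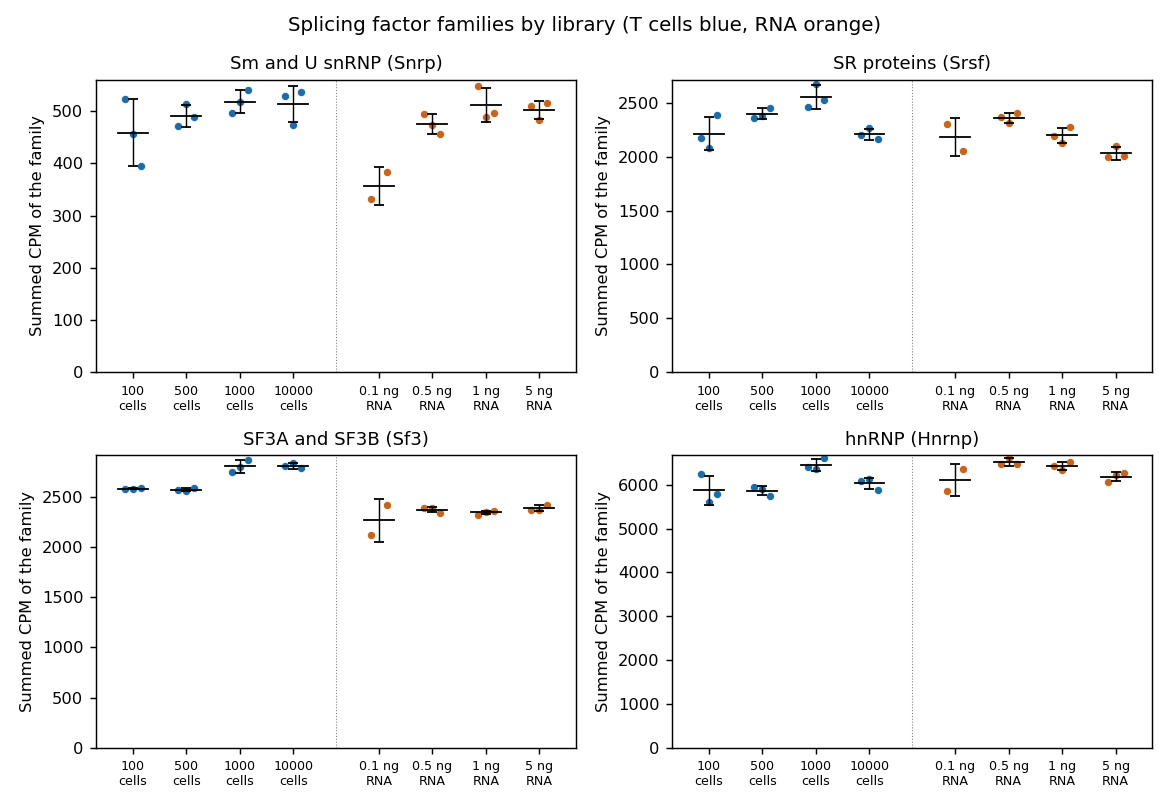
Summed CPM of each splicing factor family in every library (points) with group means and SD, the T cell groups at left and the RNA groups at right, each by rising input. Only the SF3 panel keeps the materials apart, with T cell libraries at 2559 to 2870 CPM and RNA libraries at 2114 to 2417 CPM. CPM here is over library totals, without further scaling.

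Nearly all members were detected throughout: 49 of 52 had a count in every library, and the same number averaged at least 10 CPM over the 23 libraries. The other members were Snrpf, Snrpn and Srsf12, which are described further on. Per length, as counts per kilobase of exon scaled to the same total in every library, the highest mean over the 23 libraries was that of Hnrnpa2b1 at 460.1, followed by Sf3b1 at 375, Hnrnpf at 341, Hnrnpk at 308, Srsf5 at 305 and Hnrnpa1 at 271. Some members share sequence with other annotated genes, and the counting could have split or dropped their reads. Copies elsewhere in the genome were not separated from genes that overlap at the same place. The share of 50-base words of the longest coding transcript that also occur in another annotated gene was 67.3% for Hnrnpf, 65.4% for Srsf4, 51.2% for Sf3b4, 46.4% for Hnrnpa1 and 37.8% for Hnrnpk, so their counts are uncertain. It was 0% for Sf3b1, Srsf6, Srsf9, Srsf11, Srsf12 and Hnrnpll, 0.979% for Srsf1 and 3.46% for Hnrnpl. Among other members called below as fitted, the larger shares were 28.8% for Hnrnpm, 27.8% for Srsf5, 18.6% for Snrpg and 18.2% for Hnrnph2. They were 13.8% for Snrpd1, 12.3% for Hnrnpc, 10.0% for Srsf10, 6.49% for Hnrnpr, 6.17% for Hnrnpul2, 5.77% for Hnrnpd and 5.70% for Hnrnpdl. The shared words of Hnrnpr and Hnrnpd occur in 805 and 576 other genes. A part of the reads behind these calls could therefore also belong to another gene.

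At the largest inputs, 10000 T cells against 5 ng RNA, members differed between the materials in both directions and by small amounts. Of 51 members tested, 8 were higher and 16 lower in T cells (edgeR's quasi-likelihood test, Benjamini-Hochberg adjusted p under 0.05 over all genes). Among all 14425 genes tested, 56% were called, 28.7% higher and 27.3% lower, so the members' share was no larger than the background. The members' median absolute log2 fold change was 0.20, against 0.54 over all genes tested, and their median log2 fold change was -0.11, against 0.03. By family, higher and lower calls were 0 and 2 of 11 Sm and U snRNP genes tested, 4 and 3 of 11 SR genes, 1 and 2 of 9 SF3 genes, and 3 and 9 of 20 hnRNP genes. This balance moved with the processing: the split of 8 higher and 16 lower became 10 and 14 with DESeq2's size factors in edgeR, 14 and 11 with library totals alone, 4 and 25 without the filter on low counts, and 8 and 18 in DESeq2 itself. The first pair of settings change the scaling alone, while the other pair also change the genes tested or the test. Over all genes tested, the median log2 fold change under those settings was 0.06, 0.15, 0.24 and 0.34. In the same comparison all 20 T cell core genes were higher and all 15 B cell, 15 macrophage, 12 neutrophil, 11 erythroid and 23 cell cycle genes lower in T cells, and the part of that cell makeup in the members' differences was not tested.

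At the next step, 1000 T cells against 1 ng RNA, 8 of 50 members tested were higher and 4 lower, beside 40% of all genes called (20.1% higher and 20% lower). Without the low-count filter the split was 6 and 9, with library totals 9 and 3, and in DESeq2 9 and 7. In 500 T cells against 0.5 ng RNA, 6 of 50 were higher and 8 lower, beside 37.1% of all genes, and 3 and 9 without the filter or 7 and 9 in DESeq2. In 100 T cells against 0.1 ng RNA, edgeR's quasi-likelihood test called 0 of 50 members, beside 0.0535% of all genes. At an unadjusted p under 0.05 the count there was 2 of 50, beside 2049 of 13073 genes in all, and DESeq2 also called 0 members. Leaving out replicate 3 of the 100-cell group left the members' count at 0, while 545 genes in all were then called. These 4 comparisons share no library. Across the upper 3, 5 members were called higher each time (Srsf5, Srsf6, Srsf12, Sf3b1 and Hnrnpdl) and 2 lower each time (Srsf1 and Hnrnpl), and 0 were called higher in one and lower in another. Of the 11896 genes tested in all 3, 10.6% were called higher each time and 14.8% lower each time, 25.4% together, so that 7 of 50 members is no larger a share than the background. The calls of Srsf5, Srsf6, Srsf1 and Hnrnpl held in all 3 under each of the 11 alternatives run. Of the 50 members tested in all 3, 15 had a positive log2 fold change each time, 15 a negative one and 20 a mixed sign, beside 32.5%, 35.2% and 32.3% of all genes tested in all 3.

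**Figure D2:**
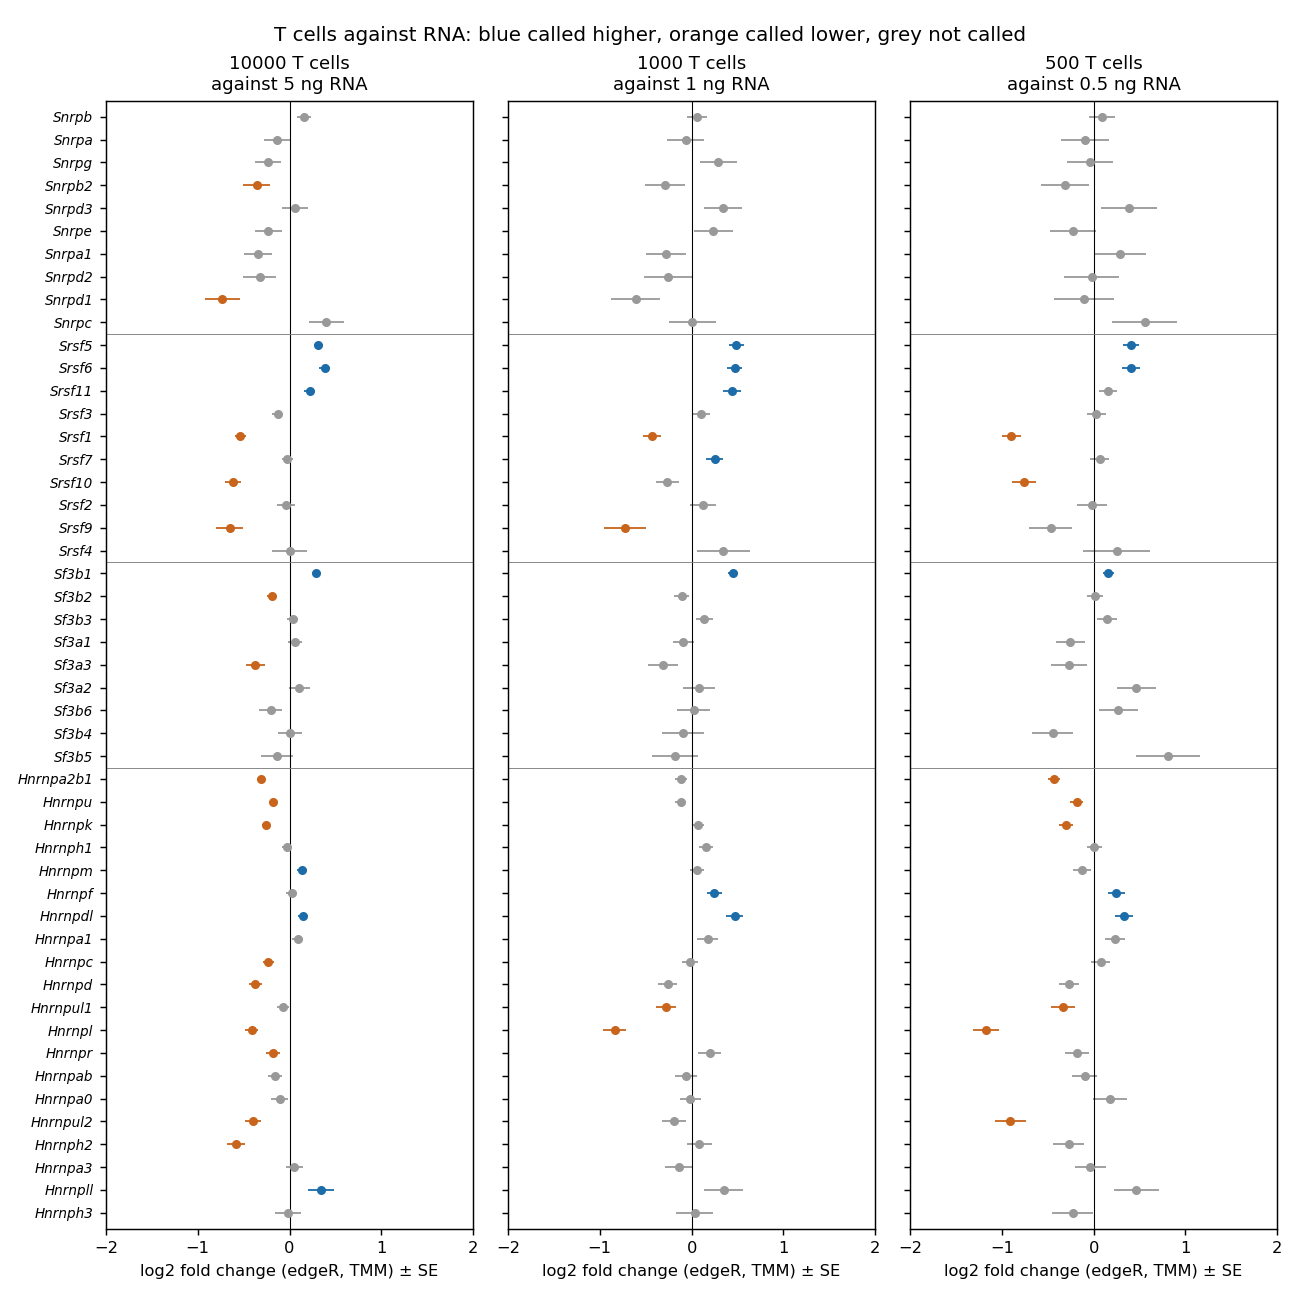
Log2 fold change of T cells over RNA with its SE for 49 members in 3 comparisons (the 10000-cell libraries over 5 ng, the 1000-cell over 1 ng and the 500-cell over 0.5 ng), with blue points called higher, orange called lower and grey not called. Sf3b1, Srsf5, Srsf6 and Hnrnpdl are blue and Srsf1 and Hnrnpl orange in all 3, and Snrpf, Snrpn and Srsf12 are not drawn because of their low counts.

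Sf3b1, the largest SF3B subunit, which clamps the helix formed by the branch point and U2 RNA, was the member with the highest mean CPM, a scale that is not corrected for length. It had 1649, 1685 and 1618 CPM in the 3 libraries of 10000 T cells, against 1248, 1251 and 1259.5 CPM in 5 ng RNA. The T cell libraries were all higher and the groups did not overlap. The log2 fold change was 0.29 (SE 0.038, adjusted p = 1.74e-09). Fold changes are fitted with TMM factors, which rescale libraries by their typical gene, and so differ somewhat from ratios of CPM. Sf3b1 was also higher in 1000 T cells, with 1691, 1758 and 1779 CPM against 1262, 1240.3 and 1283 CPM in 1 ng RNA, a log2 fold change of 0.46 (SE 0.053, adjusted p = 1.66e-07). With 500 T cells it had 1475, 1480.3 and 1447 CPM, against 1297, 1357 and 1254 CPM in 0.5 ng RNA, and the log2 fold change was 0.16 (SE 0.057, adjusted p = 0.032), a call lost without the filter on low counts and in each of the 6 fits that left out 1 library. In 100 T cells it had 1564, 1629 and 1529 CPM, against 1088 and 1166 CPM in 0.1 ng RNA, and the log2 fold change of 0.50 (SE 0.16, adjusted p = 0.248) did not pass. Over all inputs the lowest, median and highest values were 1447, 1624 and 1779 CPM in 12 T cell libraries, against 1088, 1254 and 1357 CPM in 11 RNA libraries. It was the 1 member whose T cell libraries all lay above all RNA libraries, a pattern that 2.8% of the 22488 genes in the table showed, and 0 members lay all below, which 3% of genes did.

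Sf3b1 carried more than any other member of the SF3 sum. It made up 58.8 ± 0.643% of SF3 counts in 10000 T cells and 52.5 ± 0.341% in 5 ng RNA (SD, n = 3 each). Over all inputs its share was 55.9 to 63.2% in T cell libraries and 48.3 to 56.9% in RNA libraries. The materials therefore overlapped in this share, unlike in its CPM. Without Sf3b1, the other 8 SF3 genes summed to 949 to 1164 CPM in T cells and 1027 to 1248 CPM in RNA, and overlapped. Their median was 1085 CPM over the T cell libraries, against 1089.9 CPM over the RNA libraries. Sf3b2, which contacts the pre-mRNA near the branch point, had 383, 402 and 385 CPM in 10000 T cells and 399, 407 and 433 CPM in 5 ng RNA. Its groups overlapped by 1 library in CPM, and its log2 fold change of -0.19 (SE 0.053, adjusted p = 0.00155) was called lower, though not with library totals alone. Sf3a3, the SF3A subunit also known as SF3a60, had 71.1, 72.2 and 72.6 CPM in 10000 T cells, all below the 78.1, 82.4 and 97.7 CPM in 5 ng RNA, with -0.37 (SE 0.11, adjusted p = 0.00263) on the log2 scale, a call lost without replicate 3 of the 5 ng group. Sf3b3, the scaffold subunit of SF3B, had 327, 282 and 326 CPM in 10000 T cells and 292, 279 and 273 CPM in 5 ng RNA. Sf3a1, the largest SF3A subunit, had 177, 172 and 169 CPM in 10000 T cells and 149, 154 and 157 CPM in 5 ng RNA. Neither gene passed as fitted, with log2 fold changes of 0.036 (SE 0.06, adjusted p = 0.637) for Sf3b3 and 0.058 (SE 0.073, adjusted p = 0.52) for Sf3a1. With library totals alone both were called higher, Sf3b3 at 0.16 (adjusted p = 0.0226) and Sf3a1 at 0.18 (adjusted p = 0.0318), and without the filter on low counts both were below 0, so that no direction is given for them. The ratio of Sf3b1 to Sf3b2 was 3.52 to 5.31 in T cell libraries (median 4.20) and 2.91 to 3.52 in RNA libraries (median 3.13), and 11 of 12 T cell libraries lay above the highest RNA library. This ratio and those given below were chosen after the values were seen and carry no test.

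Of 11 SR protein genes tested in 10000 T cells against 5 ng RNA, 4 were called higher and 3 lower, 63.6% of them beside 56% of all genes. The sum of the family was 2160 to 2262 CPM in 10000 T cells and 1993 to 2099 CPM in 5 ng RNA, without overlap, while over all inputs the materials overlapped. Srsf5 and Srsf6, which bind exonic enhancers, were the members with the highest CPM of this family and were both higher in T cells. Srsf6 had 384, 391 and 356 CPM in 10000 T cells, against 252, 281 and 271 CPM in 5 ng RNA, with no overlap, and its log2 fold change was 0.38 (SE 0.058, adjusted p = 8.77e-08). Srsf5 had 468, 453 and 419 CPM in 10000 T cells, against 330.5, 344 and 323 CPM in 5 ng RNA, again with no overlap, and a log2 fold change of 0.32 (SE 0.054, adjusted p = 1.23e-06). In 1000 T cells against 1 ng RNA the log2 fold changes were 0.47 (SE 0.081, adjusted p = 5.28e-05) for Srsf6 and 0.49 (SE 0.086, adjusted p = 5.68e-05) for Srsf5. In 500 T cells against 0.5 ng RNA they were 0.40 (SE 0.10, adjusted p = 0.00265) and 0.40 (SE 0.087, adjusted p = 0.000787). At the lowest step, 100 T cells against 0.1 ng RNA, they were 0.30 (SE 0.24, adjusted p = 0.59) and 0.14 (SE 0.23, adjusted p = 0.84) and did not pass. Srsf11, an SR-related protein also known as p54, had 312, 326 and 332 CPM in 10000 T cells and 244, 273 and 252 CPM in 5 ng RNA, a log2 fold change of 0.22 (SE 0.059, adjusted p = 0.00119). That call was lost without the filter on low counts, at 0.12 with an adjusted p of 0.0985.

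Srsf1, Srsf9 and Srsf10 went the other way. Srsf1, the founding SR protein known as ASF/SF2, had 216, 257 and 228 CPM in 10000 T cells, all below the 301, 321 and 319 CPM of 5 ng RNA, with a log2 fold change of -0.54 (SE 0.063, adjusted p = 5.5e-11). In 1000 T cells it had 278, 256 and 210.2 CPM, against 326, 319 and 354 CPM in 1 ng RNA, and a log2 fold change of -0.44 (SE 0.10, adjusted p = 0.00082). In 500 T cells it had 198, 206 and 242 CPM, against 398, 397 and 401 CPM in 0.5 ng RNA, and a log2 fold change of -0.90 (SE 0.10, adjusted p = 3.33e-07). The separation was complete in these 3 comparisons. In 100 T cells Srsf1 had 206, 155 and 327 CPM, against 422 and 299.9 CPM in 0.1 ng RNA. The highest of the 100-cell values was replicate 3, the library with B cell and myeloid markers. It was the 1 T cell library of 12 that reached the RNA range of 299.9 to 422 CPM. The part of those markers' cells in this value was not tested. Srsf10, which is known to repress splicing when dephosphorylated, had 99.5, 97.9 and 99.4 CPM in 10000 T cells and 142, 149 and 130.2 CPM in 5 ng RNA, a log2 fold change of -0.61 (SE 0.086, adjusted p = 8.69e-09). Srsf10 was also lower in 500 T cells, with 100.0, 115 and 115 CPM against 190.4, 180.1 and 183 CPM in 0.5 ng RNA and -0.76 (SE 0.13, adjusted p = 0.000111) on the log2 scale. Its log2 fold changes of -0.26 (SE 0.13, adjusted p = 0.0999) in 1000 T cells against 1 ng RNA and 0.067 (SE 0.32, adjusted p = 0.952) in 100 T cells against 0.1 ng RNA did not pass. Srsf9, a small SR protein also known as SRp30c, had 36.8, 48.8 and 28.8 CPM in 10000 T cells and 57.0, 59.7 and 50.6 CPM in 5 ng RNA, with no overlap and a log2 fold change of -0.65 (SE 0.15, adjusted p = 0.000128). In 1000 T cells against 1 ng RNA it was -0.73 (SE 0.23, adjusted p = 0.0135), a call that was lost without replicate 2 of the 1000-cell group or replicate 3 of the 1 ng group.

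**Figure D3:**
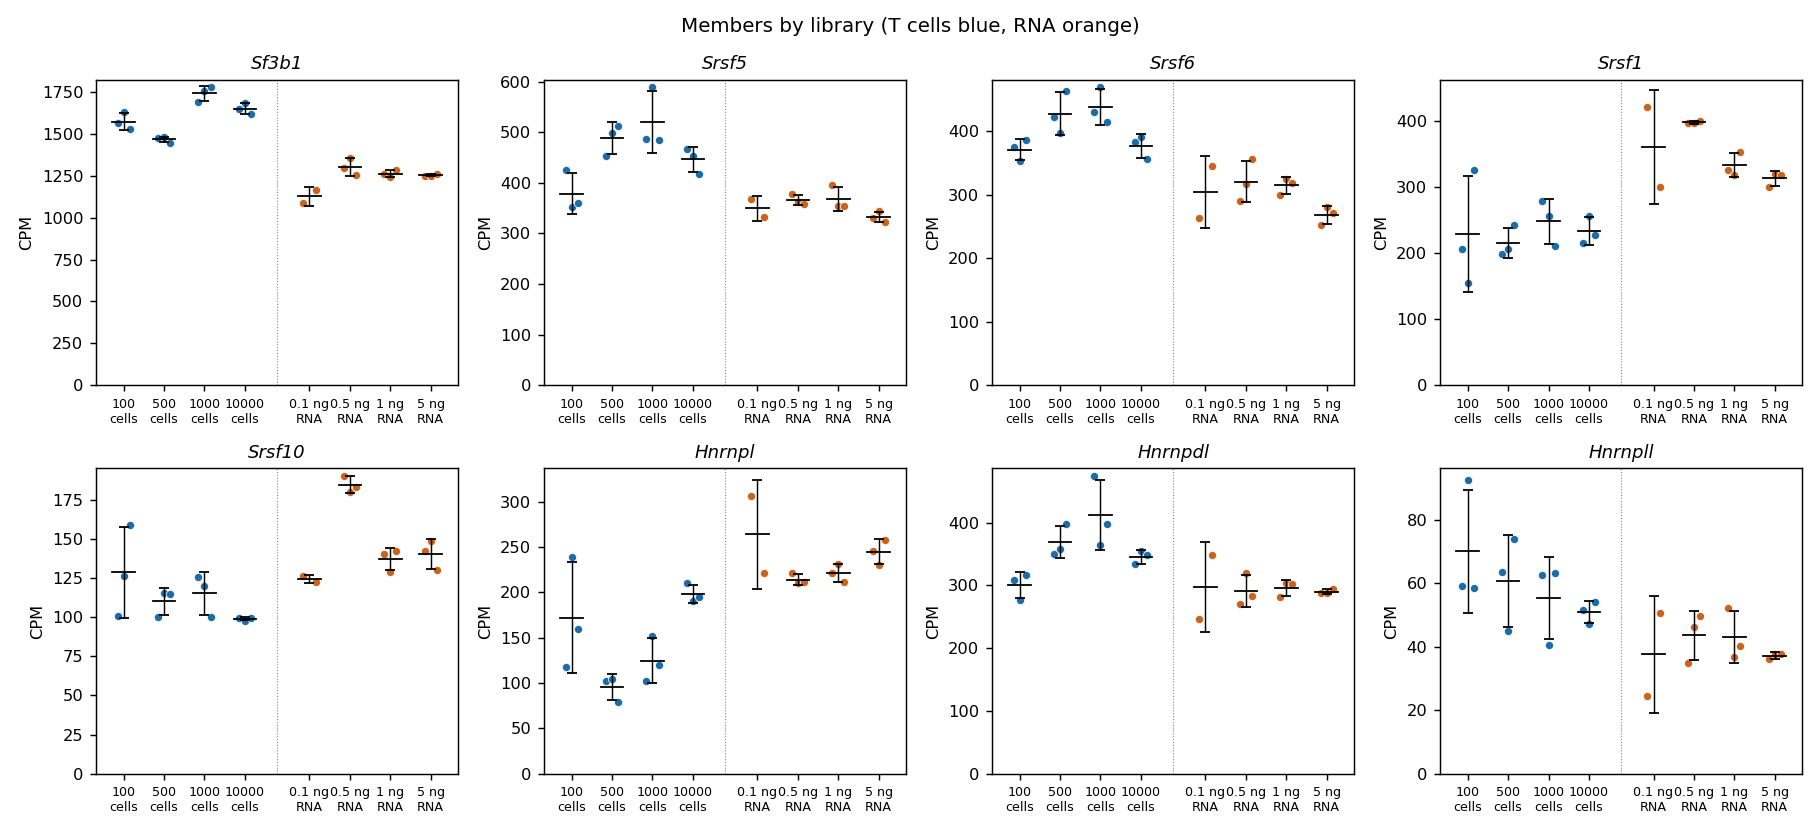
CPM of 8 members in every library, T cell groups at left and RNA groups at right by rising input, with lines at the group means. Sf3b1 keeps all T cell libraries above all RNA libraries, and Srsf1 keeps all but replicate 3 of the 100-cell group below them.

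As shares of all SR counts, Srsf5 held 20.2 ± 0.963%, Srsf6 17.1 ± 0.532% and Srsf11 14.6 ± 0.619% in 10000 T cells, against 16.4 ± 0.229%, 13.2 ± 0.456% and 12.6 ± 0.392% in 5 ng RNA (SD, n = 3 each). Srsf1 held 10.6 ± 0.757%, Srsf10 4.49 ± 0.142% and Srsf9 1.72 ± 0.414% in 10000 T cells, against 15.4 ± 0.453%, 6.91 ± 0.348% and 2.74 ± 0.188% in 5 ng RNA. Srsf1's share was 7.45% at the lowest, 9.69% at the median and 13.7% at the highest T cell library, all below the RNA libraries' 14.6%, 15.6% and 18.3%. No other member's share of its own family was lower in every T cell library than in every RNA library. For no member was that share higher in every T cell library. Shares within a family do not depend on the library scaling. The ratio of Srsf1 to Srsf5 was 0.413 to 0.908 in T cells (median 0.467) and 0.825 to 1.15 in RNA (median 0.989), with 11 of 12 T cell libraries below every RNA library. That of Srsf10 to Srsf6 was 0.237 to 0.411 in T cells (median 0.264) and 0.356 to 0.656 in RNA (median 0.481), with 10 of 12 below.

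**Figure D4:**
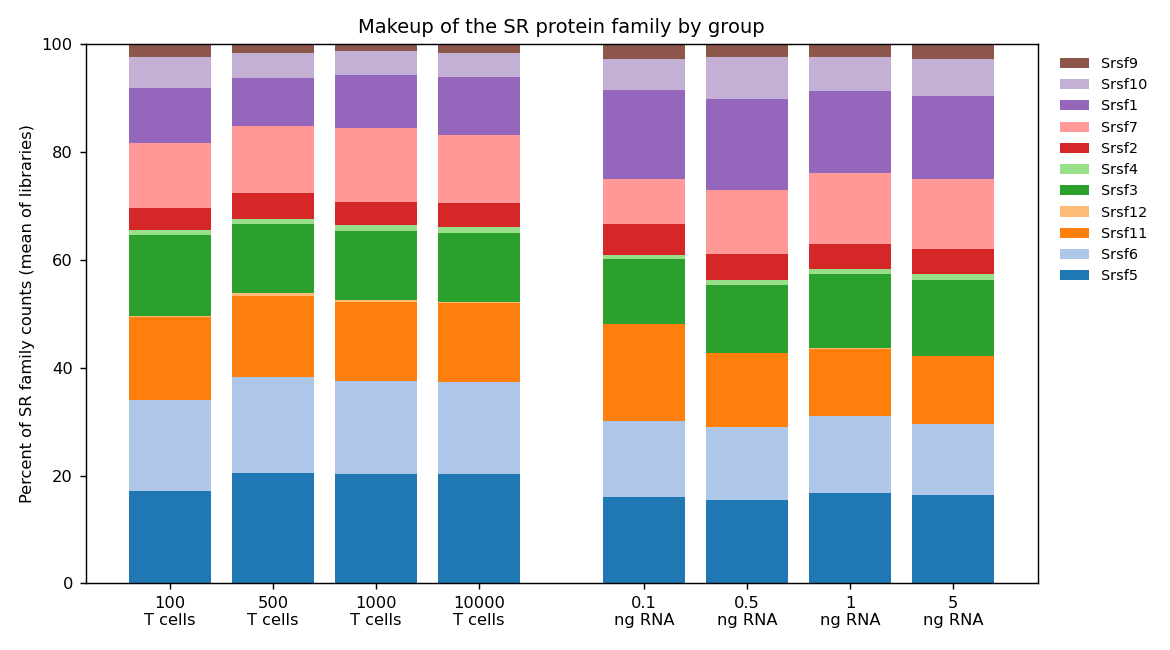
Stacked mean percent of SR protein counts held by each Srsf gene in each group, T cell groups at left and RNA groups at right by rising input. Srsf1 holds 10.6% in 10000 T cells and 15.4% in 5 ng RNA, and Srsf5 holds 20.2% in 10000 T cells and 16.4% in 5 ng RNA.

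The other SR genes did not pass in 10000 T cells against 5 ng RNA as fitted, Srsf12 apart. Srsf3, the smallest SR protein, had 291, 273 and 277 CPM in 10000 T cells and 295, 281 and 276 CPM in 5 ng RNA, with a log2 fold change of -0.13 (SE 0.059, adjusted p = 0.0564). It was called lower in 6 of 11 alternatives (DESeq2, no filter on low counts, and without replicate 1, 2 or 3 of the 10000-cell group or replicate 3 of the 5 ng group), over which and the others it ranged from -0.23 to -0.0083. Srsf7, which like Srsf3 also serves as an adaptor for mRNA export, had 271, 277 and 286 CPM in 10000 T cells and 257, 265 and 262 CPM in 5 ng RNA, with -0.022 (SE 0.059, adjusted p = 0.773). Srsf2 and Srsf4 had log2 fold changes of -0.038 and 0.0026. Srsf12, described in human cells as an antagonist of other SR proteins, was called higher in T cells in the upper 3 comparisons (adjusted p = 2.51e-05, 0.00822 and 0.00018 from the largest input down), at very low levels. It had 2.23, 4.96 and 7.94 CPM in 10000 T cells, against 0, 0.267 and 0.759 CPM in 5 ng RNA. In 500 T cells it had 21.0, 7.77 and 7.65 CPM, against 0.489, 0 and 0 CPM in 0.5 ng RNA, and its fitted fold changes rest on the prior count and are not given. In 1000 T cells against 1 ng RNA the call was lost without replicate 1 of the 1000-cell group. Genes of olfactory and vomeronasal receptors, which splenic cells are not known for, moved the same way: their summed level was 3278 to 5231 CPM in T cell libraries and 176 to 1767 CPM in RNA libraries. Their 95th percentile was 5.88 to 15.7 CPM in T cells and 0.667 to 6.91 CPM in RNA, beside 1.56 to 21.0 CPM in T cells and 0 to 3.27 CPM in RNA for Srsf12. This receptor set was chosen after the values were seen, and the part of such low-level signal in the Srsf12 difference was not tested.

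The start regions of 4 members of these differences are printed so that the promoters of genes higher in T cells (Sf3b1, Srsf5, Srsf6) can be set beside one that was lower (Srsf1). Each line holds the 100 bases before the RefSeq gene start of build GRCm38.p6, 5′ to 3′ on the gene's strand, with capitals for CCGGAAG or its reverse complement CTTCCGG, the core bound by ETS factors. They lie at chr1:55027479-55027578 (minus strand), chr12:80945399-80945498 (plus), chr2:162931408-162931507 (plus) and chr11:88047273-88047372 (plus).
Sf3b1: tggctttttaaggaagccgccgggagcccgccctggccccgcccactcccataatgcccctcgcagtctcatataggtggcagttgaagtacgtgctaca
Srsf5: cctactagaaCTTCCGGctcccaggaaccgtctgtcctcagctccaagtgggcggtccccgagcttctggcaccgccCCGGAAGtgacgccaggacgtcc
Srsf6: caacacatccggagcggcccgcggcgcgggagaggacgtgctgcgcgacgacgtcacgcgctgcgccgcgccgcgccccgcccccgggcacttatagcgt
Srsf1: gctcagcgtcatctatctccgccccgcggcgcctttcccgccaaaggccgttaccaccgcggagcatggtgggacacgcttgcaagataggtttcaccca
Srsf5 carried the motif on both strands, and no match in the others says only that these letters are not in these windows. Of the 52 members, 46 had a RefSeq window (250 bases before to 50 after the start). For the 4 genes printed, the window's last bases were sought in the first 60 bases of the longest coding transcript. They were found there in 3 of the 4, so the start is not certain for all 4 genes. Searched on both strands, CCGGAAG was in 16 of the 46 windows (34.8%), against 12.3% of all 16512 genes with a window. CCAAT was in 22 (47.8%, against 38.7%), TATAAA in 6 (13.0%, against 12.8%) and GCGCATGC, the site of NRF1, in 1 (2.17%, against 3.75%). Each motif was searched on its own, so that matches of different motifs may overlap. The median count of CpG dinucleotides was 24.5 in the members' windows and 14 in all windows, and the median GC content was 60.2% in the members' windows and 57% in all. All genes with a window were counted, expressed or not, and they were not matched to the members for level or CpG. The motif shares are therefore not set against like genes. The matches describe the windows and were not tied to the differences in level.

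Of the hnRNP genes, 3 of 20 were called higher and 9 lower in 10000 T cells against 5 ng RNA, 60% of the family beside 56% of all genes. Hnrnpl, which binds CA repeats and silences variable exons of CD45, was lower in T cells in each of the upper 3 comparisons. It had 210.0, 191 and 195 CPM in 10000 T cells, all below the 246, 230.5 and 258 CPM of 5 ng RNA, with a log2 fold change of -0.41 (SE 0.066, adjusted p = 2.66e-07). In 1000 T cells it had 102, 152 and 119.9 CPM, against 221, 231 and 212 CPM in 1 ng RNA, with -0.84 (SE 0.12, adjusted p = 7.13e-06). With 500 T cells it had 103, 104 and 79.6 CPM, against 221, 210.2 and 211 CPM in 0.5 ng RNA, with -1.17 (SE 0.14, adjusted p = 6.12e-07). No T cell library overlapped the RNA libraries in these 3 comparisons. In 100 T cells it had 118, 239 and 159 CPM, against 307 and 221 CPM in 0.1 ng RNA. Here 1 T cell library, replicate 2 and not replicate 3, lay within the RNA values, and the log2 fold change of -0.60 (SE 0.35, adjusted p = 0.435) did not pass. Hnrnpll, its paralog with the same known action on CD45 in T cells, had 51.6, 47.1 and 54.1 CPM in 10000 T cells, above the 36.1, 37.8 and 37.8 CPM of 5 ng RNA, with 0.34 (SE 0.14, adjusted p = 0.0363). That call was lost without the filter on low counts and in 5 of the 6 fits that left out 1 library, over which and the other alternatives it ranged from 0.24 to 0.46. The ratio of Hnrnpll to Hnrnpl was 0.246 to 0.927 in T cell libraries (median 0.409), all above the 0.0797 to 0.236 of RNA libraries (median 0.164).

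Hnrnpdl, a close relative of Hnrnpd that binds AU-rich RNA, was higher in T cells. It had 333, 355 and 348 CPM in 10000 T cells and 287, 288 and 294 CPM in 5 ng RNA, with no overlap and a log2 fold change of 0.14 (SE 0.056, adjusted p = 0.0262). In 1000 T cells it had 474, 365 and 398 CPM, against 281, 304 and 301 CPM in 1 ng RNA, with 0.47 (SE 0.092, adjusted p = 0.000204). In 500 T cells against 0.5 ng RNA it was 0.33 (SE 0.10, adjusted p = 0.0122), a call lost in 4 of 11 alternatives (no filter on low counts, and without replicate 3 of the 500-cell group or replicate 1 or 3 of the 0.5 ng group). The 10000-cell call was lost without the low-count filter and in each of the 6 fits that left out 1 library, and it ranged from 0.04 to 0.26. Hnrnpm, a GU-rich RNA binder, had 438, 467 and 435 CPM in 10000 T cells and 382, 384 and 361 CPM in 5 ng RNA, with 0.14 (SE 0.053, adjusted p = 0.0213), and lost its call without the filter and in 5 of the 6 such fits. The ratio of Hnrnpl to Hnrnpdl was 0.2 to 0.865 in T cells (median 0.400) and 0.635 to 1.24 in RNA (median 0.788), with 11 of 12 T cell libraries below every RNA library.

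The hnRNP genes lower in 10000 T cells against 5 ng RNA included members of high and of moderate level. Hnrnpa2b1, which reads exon and m6A-linked motifs, had 876, 954 and 880.1 CPM in 10000 T cells, all below the 1024, 1056 and 1027 CPM in 5 ng RNA, with -0.31 (SE 0.043, adjusted p = 8.11e-09) on the log2 scale. Hnrnpu, a nuclear scaffold protein also known as SAF-A, had 925, 948 and 832 CPM in 10000 T cells and 929.9, 949 and 949.8 CPM in 5 ng RNA, with -0.17 (SE 0.044, adjusted p = 0.000625) and overlapping groups in CPM, and was not called with library totals alone. Hnrnpk, which binds C-rich RNA, had 637, 609 and 613 CPM in 10000 T cells and 674, 683 and 699 CPM in 5 ng RNA, with no overlap and -0.26 (SE 0.046, adjusted p = 2.66e-06). Hnrnph1, a binder of G runs, had 478, 442 and 467 CPM in 10000 T cells and 418, 438 and 456 CPM in 5 ng RNA and did not pass, at -0.031 (SE 0.052, adjusted p = 0.632). Its paralog Hnrnph2 had 81.7, 75.0 and 70.8 CPM in 10000 T cells, all below the 114, 97.3 and 105 CPM in 5 ng RNA, with -0.58 (SE 0.10, adjusted p = 1.1e-06). Hnrnpd, the mRNA decay factor AUF1, was at -0.37 (SE 0.068, adjusted p = 3.47e-06), with 180.4, 193 and 188 CPM in 10000 T cells and 232, 211 and 232 CPM in 5 ng RNA. Hnrnpul2, a relative of Hnrnpu, had 103, 120.5 and 124 CPM in 10000 T cells and 149, 147 and 128 CPM in 5 ng RNA, with -0.39 (SE 0.085, adjusted p = 7.21e-05), and -0.91 (SE 0.17, adjusted p = 0.000235) in 500 T cells against 0.5 ng RNA. Hnrnpc, which binds U tracts, and Hnrnpr, related to the mRNA-binding protein SYNCRIP, were also lower, with log2 fold changes of -0.23 and -0.18, of which the first was lost with library totals alone and the second in 4 alternatives. None of these lower genes was called in 1000 T cells against 1 ng RNA. Log2 fold changes there were -0.12 for Hnrnpa2b1 and Hnrnpu, -0.26 for Hnrnpd, -0.19 for Hnrnpul2 and -0.021 for Hnrnpc. They were above 0 for Hnrnpk (0.073), Hnrnph2 (0.085) and Hnrnpr (0.20). In 500 T cells against 0.5 ng RNA, Hnrnpa2b1, Hnrnpu and Hnrnpk were again called lower. Hnrnpul1, another relative of Hnrnpu, was called lower in 1000 T cells against 1 ng RNA, at -0.28 (SE 0.11, adjusted p = 0.038), a call lost in 5 alternatives.

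Of the Sm and U snRNP genes, 2 of 11 tested were called in 10000 T cells against 5 ng RNA, both lower, beside 56% of all genes. That count was not stable: without replicate 1 of the 10000-cell group it was 6, with Snrpe, Snrpg and Snrpa1 also lower and Snrpc higher, without the filter on low counts it was 5, and over the 11 alternatives it ran from 1 to 6. The Sm core is thought to contain its proteins in equal number, but no protein was measured, and the RNA values that follow are not a measure of that number. Per length, the means over the 23 libraries ran from 244 for Snrpb, which encodes SmB, through 86.2 for Snrpg and 82.8 for Snrpe. They were 35.4, 33.8 and 30.1 for Snrpd1, Snrpd3 and Snrpd2 and 5.90 for Snrpf. Snrpf shares 89.5% of its 50-base words with other annotated genes, so its counts are uncertain. The shares were 20.8% for Snrpe, 18.6% for Snrpg, 13.8% for Snrpd1, 11.7% for Snrpd2, 5.46% for Snrpd3 and 0.09% for Snrpb. Snrpb had 188, 163 and 198 CPM in 10000 T cells and 163, 143 and 150.1 CPM in 5 ng RNA, overlapping by 1 library, with a log2 fold change of 0.16 (SE 0.076, adjusted p = 0.0749) that did not pass. It was called higher with DESeq2's size factors in edgeR (0.19, adjusted p = 0.0282), with library totals alone (0.28, adjusted p = 0.00143) and without replicate 2 of the 10000-cell group (0.19, adjusted p = 0.0363). Snrpd1, the SmD1 gene, had 17.0, 18.7 and 19.7 CPM in 10000 T cells, all below the 27.8, 27.0 and 30.5 CPM of 5 ng RNA, with -0.73 (SE 0.19, adjusted p = 0.000886). Snrpb2, a U2-specific protein, had 39.3, 36.1 and 36.4 CPM in 10000 T cells and 42.4, 45.8 and 44.5 CPM in 5 ng RNA, with -0.36 (SE 0.15, adjusted p = 0.0329). These are the 2 calls of the family, and that of Snrpb2 was lost in 4 of 11 alternatives. Snrpa, a U1-specific protein, had 52.4, 36.7 and 46.4 CPM in 10000 T cells and 42.4, 42.2 and 53.0 CPM in 5 ng RNA. Snrpg, the SmG gene, had 58.0, 36.9 and 53.5 CPM in 10000 T cells and 56.3, 49.9 and 55.5 CPM in 5 ng RNA. Neither passed as fitted, at -0.14 (SE 0.15, adjusted p = 0.446) for Snrpa and -0.24 (SE 0.14, adjusted p = 0.142) for Snrpg. Snrpn, a close copy of Snrpb known for its expression in brain from the paternal allele, stayed at 0 to 5.58 CPM in T cells and 0 to 6.33 CPM in RNA and was listed at 0 in 6 libraries, and Snrpf was listed at 0 in 7.

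Within the T cells, each smaller input was compared with 10000 cells, and these comparisons share the 10000-cell libraries. With 100 cells, edgeR's quasi-likelihood test called 0 of 50 members, beside 0% of all genes. The count at an unadjusted p under 0.05 was 2 of 50, beside 1686 of 14099 genes in all, and DESeq2 called 0 members. Without replicate 3 of the 100-cell group, 357 genes in all and 1 member were called: Sf3b3 was lower with a log2 fold change of -0.57 (adjusted p = 0.0478). With 500 cells, 0 of 50 members were higher and 5 lower, beside 3.21% of all genes. With 1000 cells, 5 of 50 were higher and 1 lower, beside 3.27% of all genes. Markers of other cells moved in the same fits. At 500 cells 5 of 14 B cell genes tested were higher (summed level 1011 to 1032 CPM, against 722 to 786 CPM in 10000 cells), 3 of 10 erythroid genes were higher, and 1 of 13 macrophage genes was higher and 4 lower (90.5 to 110 CPM, against 148 to 160 CPM). At 1000 cells 5 of 10 erythroid genes were higher (324 to 341 CPM, against 129 to 155 CPM), and the part of these cells in the members' changes was not tested. Hnrnpl was the member called lower at both inputs. It had 103, 104 and 79.6 CPM in 500 cells and 102, 152 and 119.9 CPM in 1000 cells, against 210.0, 191 and 195 CPM in 10000 cells, with no overlap. Its log2 fold changes were -1.06 (SE 0.13, adjusted p = 1.65e-05) at 500 cells and -0.65 (SE 0.12, adjusted p = 0.000471) at 1000 cells, and they passed in every alternative. At 100 cells its values of 118, 239 and 159 CPM spanned those of 10000 cells.

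The other calls among T cell inputs were smaller. In 500 cells, Hnrnpul1 had 199, 157 and 151 CPM, against 265, 232 and 248 CPM in 10000 cells, with -0.56 (SE 0.11, adjusted p = 0.00494) on the log2 scale. Sf3a1 had 103, 143 and 117 CPM in 500 cells and 177, 172 and 169 CPM in 10000 cells, with -0.52 (SE 0.13, adjusted p = 0.0265), and Hnrnpm and Sf3b1 were at -0.34 (SE 0.087, adjusted p = 0.0336) and -0.18 (SE 0.045, adjusted p = 0.0273). In these members all 500-cell libraries lay below all 10000-cell libraries. In 1000 cells Srsf7 had 313, 351 and 384 CPM, against 271, 277 and 286 CPM in 10000 cells, with 0.35 (SE 0.082, adjusted p = 0.0104). Hnrnpf, Hnrnph1, Hnrnpa2b1 and Hnrnpk were higher in 1000 cells by log2 fold changes of 0.27, 0.24, 0.21 and 0.21. Leaving out 1 library of the 10000-cell group (replicates 1, 2 and 3 in turn) reduced the 5 calls at 500 cells to 1, 2 and 2 and the 6 calls at 1000 cells to 1, 2 and 1, and leaving out replicate 3 of the 1000-cell group left 3.

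Within the RNA, 5 ng was the largest input and its libraries are shared by 3 comparisons. In 0.1 ng, 1 of 51 members was higher and 2 lower, beside 11.2% of all genes. In the same fit 6 of 12 neutrophil, 5 of 11 erythroid and 4 of 15 macrophage genes were lower in 0.1 ng (summed levels 3759 to 3763, 2727 to 3099 and 2922 to 3014 CPM in 0.1 ng, against 5121 to 5375, 4696 to 4737 and 3470 to 3577 CPM in 5 ng), and their part in the members' changes was not tested. Snrpg had 6.11 and 16.1 CPM in 0.1 ng and 56.3, 49.9 and 55.5 CPM in 5 ng, with a log2 fold change of -2.33 (SE 0.43, adjusted p = 0.0319). Srsf11 had 403 and 375 CPM in 0.1 ng and 244, 273 and 252 CPM in 5 ng, with 0.56 (SE 0.089, adjusted p = 0.0256), and Hnrnpr had 131 and 109 CPM in 0.1 ng and 168, 166 and 175 CPM in 5 ng, with -0.54 (SE 0.12, adjusted p = 0.0457). With replicate 1, 2 or 3 of the 5 ng group left out, 0 members were called each time. In 0.5 ng, 3 of 50 members were higher and 0 lower, beside 5.09% of all genes. In that fit 3 of 12 neutrophil, 3 of 11 erythroid, 2 of 15 macrophage and 2 of 15 B cell genes were lower. The part of these cells in the members' changes was not tested. Srsf10 had 190.4, 180.1 and 183 CPM in 0.5 ng and 142, 149 and 130.2 CPM in 5 ng, with 0.39 (SE 0.085, adjusted p = 0.00954). Srsf1 had 398, 397 and 401 CPM in 0.5 ng and 301, 321 and 319 CPM in 5 ng, with 0.34 (SE 0.059, adjusted p = 0.00177), a call kept in every alternative. Srsf11 had 326, 306 and 333 CPM in 0.5 ng, with 0.32 (SE 0.068, adjusted p = 0.00879). The 3 calls became 6 and 5 without replicates 1 and 2 of the 0.5 ng group and 1 without replicate 1 or replicate 3 of the 5 ng group. In 1 ng, edgeR's quasi-likelihood test called 0 of 49 members, beside 0.0238% of all genes. At an unadjusted p under 0.05 the count was 11 of 49, beside 1317 of 12616 genes in all. DESeq2 called 2 members, Srsf6 and Hnrnpa0, both higher at log2 fold changes of 0.23 and 0.29.

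The difference between T cells and RNA was itself compared between the 1000-cell and 1 ng step and the 10000-cell and 5 ng step, which share no library, through the interaction term. It was called for 2 of 50 members, both more positive at the smaller step, beside 1.38% of all genes. Hnrnpk had a log2 difference of 0.29 (SE 0.078, adjusted p = 0.0411): it had 709, 696 and 716 CPM in 1000 T cells against 685, 637 and 679 CPM in 1 ng RNA, and 637, 609 and 613 CPM in 10000 T cells against 674, 683 and 699 CPM in 5 ng RNA. Hnrnph2 had a log2 difference of 0.63 (SE 0.17, adjusted p = 0.0439): it had 109, 88.8 and 105 CPM in 1000 T cells against 89.6, 97.6 and 95.5 CPM in 1 ng RNA, and 81.7, 75.0 and 70.8 CPM in 10000 T cells against 114, 97.3 and 105 CPM in 5 ng RNA. In CPM, both genes were lower in all 3 T cell libraries than in all RNA libraries at the larger step. At the smaller step all 1000-cell libraries lay above all 1 ng libraries for Hnrnpk, and the groups overlapped for Hnrnph2. Each call was lost in 14 of 16 alternatives. Hnrnpl lay the other way, more negative at the smaller step, with a log2 difference of -0.46 (SE 0.14, adjusted p = 0.0922) that did not pass. It was called in 4 of the 16 alternatives: DESeq2 (-0.49, adjusted p = 0.017), library totals alone (-0.52, adjusted p = 0.0373), no filter on low counts (-0.49, adjusted p = 0.0227) and without replicate 2 of the 1000-cell group (-0.66, adjusted p = 0.00222).

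The members' median spread between replicates was below that of all genes at every input, but not in each family. The median coefficient of variation between the libraries of a group, over members of at least 10 CPM there, was 17.9%, 10.5%, 11.1% and 6.79% in 100, 500, 1000 and 10000 T cells, against 33.7%, 19.4%, 16.2% and 10.8% over all genes of at least 10 CPM. In 0.1 ng RNA, with 2 libraries, it was 13.6% for members and 30.1% for all genes, and in 0.5, 1 and 5 ng it was 8.56%, 8.03% and 5.55% for members and 14.3%, 11.7% and 7.53% for all genes. The members' levels were also higher, with a median of 133 CPM against 42.2 CPM over all such genes in 100 T cells. The part of level in the smaller spread was not tested. The 10 CPM limit is on a group's mean, so a gene high in 1 library alone can pass. Among all genes 9777 passed in 100 T cells, whose replicate 3 stood apart, against 8976 in 10000 T cells. The highest coefficient of variation over all genes was 173% in 100 T cells and 99.2% in 10000 T cells. The part of replicate 3 in the 100-cell gap was not tested. The Sm and U snRNP genes, at lower levels, exceeded all genes in 10000 T cells (12.4%, against 10.8%), 0.1 ng RNA (37.3%, against 30.1%) and 0.5 ng RNA (16.7%, against 14.3%). Low members could vary widely at low input: Snrpe, which encodes SmE, had 43.7, 4.33 and 24.2 CPM in 100 T cells, beside 46.0, 40.2 and 34.1 CPM in 10000 T cells, an example chosen after its values were seen.

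**Figure D5:**
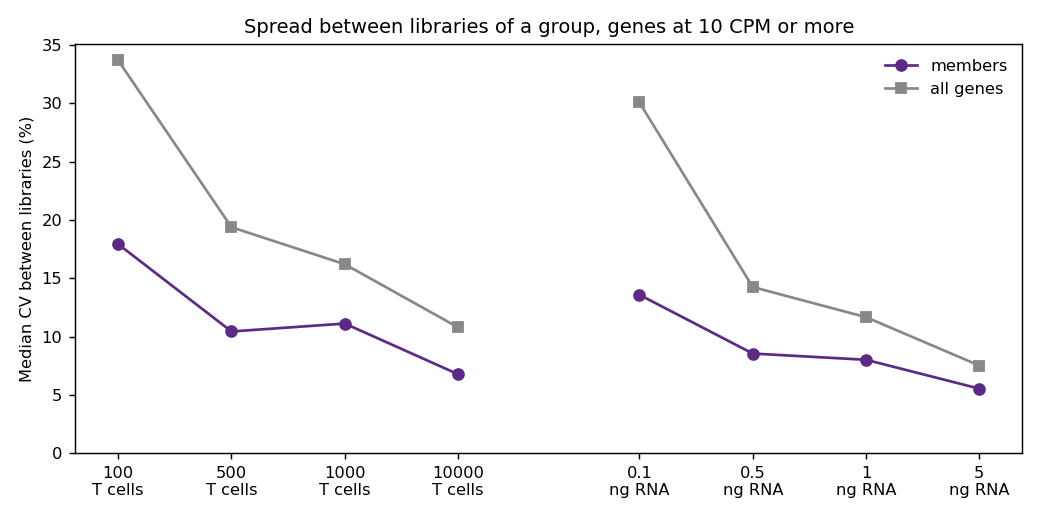
Median coefficient of variation (percent) between the libraries of each group, for members and for all genes of at least 10 CPM, T cell groups at left and RNA groups at right by rising input. Members lie below all genes in each group, from 17.9% against 33.7% in 100 T cells to 5.55% against 7.53% in 5 ng RNA.

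Other splicing genes and relatives of them, in 11 lists of 157 genes, were counted in the same fits. In 10000 T cells against 5 ng RNA, 38 of 151 tested were higher and 35 lower, and in 1000 T cells against 1 ng RNA 28 of 148 were higher and 15 lower. These are 48.3% and 29.1% of the genes tested, below the 56% and 40% of all genes called, and the counts by list that follow, for 10000 T cells against 5 ng RNA, are to be read against 28.7% of all genes called higher and 27.3% lower. Of the kinases that phosphorylate SR proteins, 3 of 7 were higher and 1 lower, with Srpk1 at 1.10 (mean 318 CPM in 10000 T cells, against 138 CPM in 5 ng RNA, adjusted p = 8.6e-23), Srpk3 at -2.62 (mean 12.5 CPM in 10000 T cells, against 71.8 CPM in 5 ng RNA, adjusted p = 2.86e-21) and Clk2 at 0.47. Of 7 U snRNP-specific genes 2 were higher and 1 lower, led by Snrnp70, the U1-70K gene, at 0.63 (mean 283 CPM in 10000 T cells, against 169 CPM in 5 ng RNA, adjusted p = 7.78e-13), with Snrnp48 at 0.24 and Snrnp25, of the minor spliceosome, at -1.36. Of 9 genes of branch point and 3′ splice site recognition tested, 3 were higher and 1 lower, including Sf1, the branch point binding protein, at 0.31 (mean 435 CPM in 10000 T cells, against 324 CPM in 5 ng RNA, adjusted p = 1.34e-06), Cherp at 0.54 and U2surp at -0.29. Spliceosomal helicases had 5 of 12 higher and 2 lower, with Ddx39b, Ddx46 and Dhx16 at 0.52, 0.51 and 0.51.

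Lists with more lower than higher genes included the Prp19 complex and related genes, with 1 of 15 higher and 6 lower (Ppil1 -0.51, Cwc15 -0.44, Cdc5l -0.42 on the log2 scale). The LSm proteins, a family whose members do not all act in splicing, had 0 of 12 higher and 3 lower (Lsm12 -0.89, Lsm6 -0.37, Lsm14a -0.26). The SMN complex, which loads Sm rings, had 2 of 12 higher and 4 lower (Gemin6 -1.17, Gemin7 -0.63, Strap -0.51). PRPF genes had 3 of 13 higher and 2 lower, with Prpf19, a ubiquitin ligase of the spliceosome, at -1.02 (mean 46.2 CPM in 10000 T cells, against 86.8 CPM in 5 ng RNA, adjusted p = 6.81e-11) and Prpf40b at 0.59. Exon junction complex genes had 3 of 9 higher and 1 lower (Acin1 0.51, Casc3 0.47, Sap18 -0.38), and SR-related genes 6 of 18 higher and 2 lower (Sugp2 0.65, Scaf11 -0.55, Srrm2 0.39). Other splicing regulators, the longest list, had 10 of 37 higher and 12 lower. The rule named Khdrbs2, Nova1 and Elavl2 there, regulators known from neurons, which averaged 4.66, 6.03 and 7.02 CPM in 10000 T cells, against 0.279, 0.381 and 0.836 CPM in 5 ng RNA. They were called higher at the low level at which the receptor genes were also found, and their fitted fold changes are not given because they rest on the prior count.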

How the data were processed

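The deposited table holds whole-number counts per gene for 23 libraries, and its unit and layout were read from the file itself. Alignment with HISAT2 2.1.0, counting with featureCounts (version not given in the sources used here) and the genome build mm8 are per the submitters' processing notes, and whether strand was used is not given in the sources used here. Of the nonzero counts in a library 57.9 to 70.7% were even, a value that would also arise if mates of a pair were counted separately, so the deposited counts may overstate the number of molecules sampled. All columns were mapped to samples by their titles, and 0 columns were left out.

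From these counts, CPM was computed over each column's total. Per-length levels used the exon union of GENCODE M21 (GRCm38), which 22391 of 22488 genes matched by symbol (99.6%), so no coordinate of the files' own build was used. Each comparison was fitted with edgeR 4.0.16 (limma 3.58.1, R 4.3.3) on the whole table with only the libraries of its groups: TMM factors, filterByExpr and the quasi-likelihood test, with p-values adjusted by Benjamini-Hochberg across every gene tested and calls at an adjusted p under 0.05. The SE of a log2 fold change is its size over the square root of F. The fit was also run on simulated counts in which a minority of genes had known changes. Those changes were larger than most of the members' differences. That run therefore does not check calls of this size or their dependence on the scaling. Alternatives were DESeq2 1.42.0, its size factors in edgeR, library totals alone, no filter on low counts, the replicate number as a block, and leaving out each library in turn.

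Genes were named by rule: the 4 of each family with the highest mean CPM, up to 8 (10000 T cells against 5 ng RNA) or 4 (elsewhere) of the largest rises and falls called with at least 10 CPM in the higher group, Snrpn, and up to 3 of the largest calls of each other splicing list. Further members were named after their values were seen. One gene that the rule names in the other splicing lists is not reported here. The members, lists and comparisons were chosen with earlier results of these data known, and nothing in them is independent support for those results. Promoter windows come from RefSeq tables of GRCm38.p6, matched by symbol for 46 of 52 members; Hnrnpll, Hnrnpul2, Sf3b4, Sf3b5, Snrpb and Snrpd1 were not matched. Library totals limit precision, since at 1737067 counts a level of 10 CPM rests on few reads, and intervals were not computed for single libraries.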

Additional observations from a re-analysis of the deposited data

Results flagged for a closer look

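The difference between T cells and RNA itself differed between input steps for 2 members, by the interaction term of edgeR's quasi-likelihood test over the 12 libraries of 1000 T cells, 1 ng RNA, 10000 T cells and 5 ng RNA. For Hnrnpk the T cell minus RNA log2 fold change was 0.29 more positive at the 1000-cell and 1 ng step than at the 10000-cell and 5 ng step (adjusted p = 0.0411). For Hnrnph2 it was 0.63 more positive (adjusted p = 0.0439). Over 16 alternatives the difference ranged from 0.23 to 0.32 for Hnrnpk and from 0.54 to 0.69 for Hnrnph2, positive each time, and each call was lost in 14 of them. Hnrnpl was not called as fitted (-0.46, adjusted p = 0.0922) but was called more negative at the smaller step in 4 of the 16 alternatives.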

How the results depend on the processing

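Over the alternatives run, the 48 log2 fold changes named by rule gave 535 further values. Of these 428 stayed on the same side of the threshold, 107 no longer passed and 0 changed sign, and 87 of the 107 came from leaving out 1 library. Counts of members called moved by over 1.5 times in these cases. In 100 T cells against 0.1 ng RNA the replicate block gave 2 in place of 0. In 100 T cells against 10000 T cells, leaving out 1 library gave 0 to 1. In 500 against 10000 T cells the 5 calls became 1 to 5 with 1 library left out. In 1000 against 10000 T cells the 6 calls became 13 in DESeq2 and 1 to 6 with 1 library left out. In 0.1 against 5 ng RNA the 3 calls became 8 in DESeq2, 1 with the replicate block and 0 to 31 with 1 library left out, the highest where a lone 0.1 ng library is assumed to vary like the 5 ng libraries (28 without replicate 1 and 31 without replicate 2). In 0.5 against 5 ng RNA the 3 calls became 10 in DESeq2, 5 with DESeq2's size factors in edgeR, 5 with the replicate block and 1 to 6 with 1 library left out. In 1 against 5 ng RNA DESeq2 gave 2 in place of 0. For the difference between input steps the 2 calls (Hnrnpk and Hnrnph2) became 1 with library totals alone and 1 without the low-count filter, in both cases Hnrnpl, with the opposite sign, in place of them. That count was 0 with the replicate block and 0 to 2 with 1 library left out. The cause was not tested in any of these. Same-numbered libraries did not deviate together (28 pairs, correlations of -0.0261 to 0.0211), and the fits as reported did not pair them. Groups of 2 or 3 libraries cannot show a shared source that is weak beside the spread between libraries, so pairing is not settled. On the TMM scale 11 of 32 family means moved by over 1 SD, from -3.39% to 3.75%. At 100 cells and 0.1 ng the spread between libraries limits what can be called.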
